A study of Mus musculus with 2 samples.

Results

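Deep intragenic Sap130 summits are the binding sites of Sap130 that lay inside a protein-coding gene and more than 5000 bp from the nearest boundary of any protein-coding gene. There were 1241 of them among 14881 nuclear summits (8.34%, Wilson 95% interval 7.91 to 8.79), in 901 host genes. A summit is the single base at which a called peak was highest, and the members were chosen by position alone. Chromatin came from hearts of C57BL/6 mouse embryos at E12.5 and was immunoprecipitated with a rabbit anti-Sap130 antibody from Bethyl (2 µg), using the Diagenode iDeal kit for transcription factors. The comparison was Input DNA of the same strain, tissue and stage, taken without antibody. Both were made into libraries with the NEBNext Ultra kit, 1 library each, and the animals carried no stated allele or treatment. How many hearts went into a library is not given in the sources used here. Neither library had a replicate, their depth is unknown, and all intervals cover counting error only, over summits that are not independent replicates. The score of a summit is on the authors' −log10 scale, from a p or a q, and it was used here only to describe and rank summits within this list. Whole heart holds several cell types, so binding in few cells and weak binding in many cannot be told apart. Among genes longer than 10000 bp, 25 of 53 heart muscle genes and 0 of 15 hepatocyte genes had a summit within 1000 bp of an end, against 56.6% of all 13918 such genes. Of the other cell type lists, endothelial and endocardial genes had 11 of 27, and epicardial and valve genes 10 of 24. Neural crest and neuronal genes had 9 of 22, leukocyte and erythroid genes 6 of 23, and skeletal muscle genes 1 of 20. Binding is not expression, so these counts do not by themselves check the labelled tissue.

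Sap130 is a subunit of the Sin3 complex, which carries histone deacetylases to chromatin and is known as a corepressor. Sin3 complexes are recruited by DNA-binding factors such as the Mad and Mxi1 partners of Max, and are found at active promoters rich in CpG as well as at silenced genes. Many long genes have promoters inside the gene body, used by shorter isoforms or by noncoding RNAs, and many enhancers lie in introns.

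The windows around 6 internal starts of host genes and 2 starts of nested noncoding RNAs follow, because more than 50% of the deep summits that could be matched lay at such starts. Each runs from 250 bases before to 50 after the start, 5′ to 3′ on the named strand, from RefSeq, build GRCm38.p6. Capitals mark matches, on either strand, to any of the 9 motifs described further on. Wdr4, Phc2, Dnmt1 and Gm31356 lie at 4 of the 20 summits of highest score, picked after the values were seen, and Mxi1 stands for the Sin3 pathway, Cacna1c and Foxp1 for the heart genes, and Kcnq1ot1 for nested imprinted transcripts.
Wdr4, minus strand, chr17:31512438-31512737: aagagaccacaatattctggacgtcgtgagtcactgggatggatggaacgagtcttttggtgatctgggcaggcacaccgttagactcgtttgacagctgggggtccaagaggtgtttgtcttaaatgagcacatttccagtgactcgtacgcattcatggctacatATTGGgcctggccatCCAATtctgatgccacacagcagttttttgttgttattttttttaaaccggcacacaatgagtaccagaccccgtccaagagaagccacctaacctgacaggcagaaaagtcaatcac
Phc2, plus strand, chr4:128727321-128727620: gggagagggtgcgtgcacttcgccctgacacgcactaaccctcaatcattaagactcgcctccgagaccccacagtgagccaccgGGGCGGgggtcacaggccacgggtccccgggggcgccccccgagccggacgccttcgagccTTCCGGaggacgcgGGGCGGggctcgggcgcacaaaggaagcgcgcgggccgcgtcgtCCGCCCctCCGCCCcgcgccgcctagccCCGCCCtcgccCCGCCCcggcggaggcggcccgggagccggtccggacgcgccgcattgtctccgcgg
Dnmt1, minus strand, chr9:20952574-20952873: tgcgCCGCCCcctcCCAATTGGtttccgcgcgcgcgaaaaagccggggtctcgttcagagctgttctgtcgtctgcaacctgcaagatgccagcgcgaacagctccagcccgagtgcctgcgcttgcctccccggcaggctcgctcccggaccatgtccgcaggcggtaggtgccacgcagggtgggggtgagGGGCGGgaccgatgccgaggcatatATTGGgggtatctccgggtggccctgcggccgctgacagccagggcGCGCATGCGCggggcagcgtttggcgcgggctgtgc
Gm31356 (inside Gpam), plus strand, chr19:55099221-55099520: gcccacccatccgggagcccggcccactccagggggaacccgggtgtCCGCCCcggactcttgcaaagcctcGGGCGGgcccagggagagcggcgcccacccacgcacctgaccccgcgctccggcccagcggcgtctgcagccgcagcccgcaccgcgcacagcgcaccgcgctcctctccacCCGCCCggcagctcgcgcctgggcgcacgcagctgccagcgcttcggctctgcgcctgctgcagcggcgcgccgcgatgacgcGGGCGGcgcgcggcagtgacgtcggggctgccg
Mxi1, plus strand, chr19:53329445-53329744: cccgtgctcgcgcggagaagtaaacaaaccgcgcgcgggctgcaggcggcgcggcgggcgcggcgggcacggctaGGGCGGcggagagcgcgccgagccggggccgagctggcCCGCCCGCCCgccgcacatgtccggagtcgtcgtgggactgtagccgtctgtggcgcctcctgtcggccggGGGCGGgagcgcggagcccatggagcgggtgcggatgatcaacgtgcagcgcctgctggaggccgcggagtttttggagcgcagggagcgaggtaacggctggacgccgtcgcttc
Cacna1c, minus strand, chr6:119108446-119108745: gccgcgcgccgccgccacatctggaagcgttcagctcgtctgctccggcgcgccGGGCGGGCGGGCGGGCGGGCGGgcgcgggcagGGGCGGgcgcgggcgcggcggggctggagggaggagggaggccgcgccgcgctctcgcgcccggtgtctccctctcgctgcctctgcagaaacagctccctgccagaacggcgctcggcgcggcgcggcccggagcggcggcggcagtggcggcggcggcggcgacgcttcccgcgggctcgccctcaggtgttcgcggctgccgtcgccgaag
Foxp1, minus strand, chr6:99028249-99028548: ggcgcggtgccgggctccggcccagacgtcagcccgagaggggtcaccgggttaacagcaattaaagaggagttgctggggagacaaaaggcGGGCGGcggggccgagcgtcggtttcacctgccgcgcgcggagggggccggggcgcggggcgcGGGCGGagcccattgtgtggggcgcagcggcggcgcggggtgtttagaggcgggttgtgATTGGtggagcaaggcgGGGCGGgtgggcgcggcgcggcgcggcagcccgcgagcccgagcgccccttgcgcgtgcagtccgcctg
Kcnq1ot1 (inside Kcnq1), minus strand, chr7:143296498-143296797: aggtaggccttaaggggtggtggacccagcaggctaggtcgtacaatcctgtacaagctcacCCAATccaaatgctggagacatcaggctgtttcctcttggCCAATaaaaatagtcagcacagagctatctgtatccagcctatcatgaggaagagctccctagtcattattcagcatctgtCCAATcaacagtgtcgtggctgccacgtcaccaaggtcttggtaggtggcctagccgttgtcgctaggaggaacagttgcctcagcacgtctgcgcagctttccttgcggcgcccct
The Phc2 window held 45 CpG in 300 bases and 6 GC boxes (GGGCGG), and the Cacna1c window held 57 CpG and 6 GC boxes. The windows of Wdr4, at the deep summit of highest score, and of Kcnq1ot1 each held 9 CpG and no GC box, with 2 and 3 CCAAT boxes. The Dnmt1 window held 1 copy of the NRF1 palindrome, 2 GC boxes and 3 CCAAT boxes. Overlapping matches were counted separately. Most GC boxes of the Cacna1c window overlap in 1 run, and 2 CCAAT boxes of the Dnmt1 window share bases.

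Deep summits scored lower than summits at gene boundaries. Their median score was 18.9 (95% interval 17.2 to 20.3), with quartiles of 9.17 and 41.6 and a range of 2.16 to 248. Summits within 1000 bp of a gene boundary (10937) had a median of 40.4 (39.4 to 41.3). Those inside a gene and between 1000 and 5000 bp from a boundary (2020) had a median of 20.1 (18.7 to 21.5), and those outside genes and their surroundings (683) one of 13.2 (12.3 to 14.1). The intervals of the deep class and of the class just outside it overlapped, and those of the boundary class stood apart from both. At or above a score of 65.2, the upper quartile of the whole list, there were 165 deep summits (13.3%, interval 11.5 to 15.3), against 25.1% of all nuclear summits.

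Slightly more than 50% of the deep summits lay at a start of transcription that is internal to the host gene. RefSeq start windows were matched to 1196 members, and 669 of them (55.9%, interval 53.1 to 58.7) lay within 1000 bp of a start, against 73.1% of all summits matched in the same way. Of these, 610 were nearest to a start of the host gene itself and 59 to a start of another gene, which in all 59 cases was a long noncoding RNA (lncRNA). For 69 members, starts of both kinds were in reach, and each was given to the nearer. No tabulated start was within 1000 bp of 527 members, of which 343 were more than 10000 bp from any tabulated start. The 45 members on chromosome 18 were not matched to starts here. For 366 of the 610 members at a host start, the 5′ boundary of the gene was not a tabulated start. For 192 of these, the internal start was the only one tabulated for the gene. The start table is not complete. Among the 1028 members whose host has an entry in it, the share was 64.3% (61.3 to 67.2).

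The members at starts were also the stronger ones. Their median score was 26.4 (23.9 to 29.9) at a start of the host and 27.5 (20.1 to 41.0) at a lncRNA start, against 12.49 (11.3 to 13.4) where no start was tabulated. Among members of the upper quartile of the score, 121 of 160 (75.6%, interval 68.4 to 81.6) lay at a start. Of the 527 without a start, the 367 whose host has an entry in the table had a median of 11.0 (9.82 to 12.2), and the 160 whose host has none had 16.4 (13.9 to 18.9). In terms of sequence covered, deep gene interiors took up 854 Mb with 1.45 summits per Mb. Inside them, with chromosome 18 left out, the 7.57 Mb within 1000 bp of a tabulated start held 88.4 summits per Mb. The other 818 Mb off that chromosome held 0.644. The 78.9 Mb within 1000 bp of a gene boundary held 139 summits per Mb. This zone takes in 3′ as well as 5′ boundaries, so it is not a zone of starts alone.

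**Figure D1:**
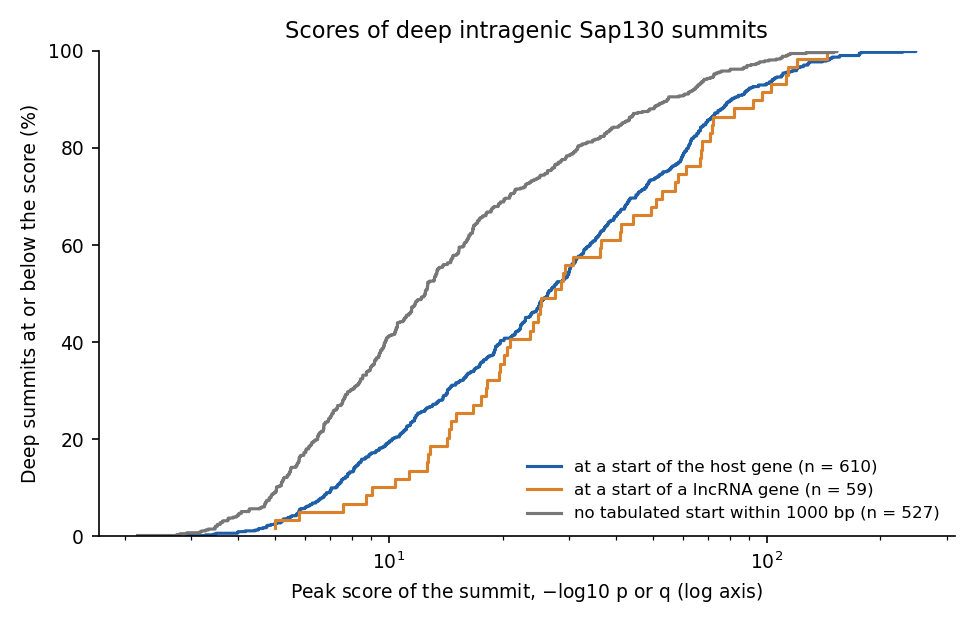
Share of deep summits (vertical axis, %) at or below each peak score (horizontal axis, log scale, −log10 p or q), with 1 step line for each group. The lines for the 610 members at a start of the host and the 59 at a lncRNA start run together, with medians of 26.4 and 27.5, to the right of the 527 with no tabulated start, with a median of 12.49.

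At internal starts, Sap130 summits sat just downstream of the start. The median offset of the 610 members at a host start was 184 bp downstream (interval 175 to 198), and 489 of them (80.2%, 76.8 to 83.1) were downstream. This is close to the placement at gene boundaries, where 7248 summits inside a gene and at a start of it had a median offset of 191 bp (189 to 193). A larger share of those, 94.1% (93.5 to 94.6), was downstream. Within the first 300 bp after the start lay 58.2% of the deep summits (54.2 to 62.0) and 76.8% of the boundary summits (75.8 to 77.7). The boundary set was taken from inside genes only, which limits how many of its summits can lie upstream. The 59 members at lncRNA starts lay on both sides of the start, with a median of -3 bp (-122 to 52) and 28 of 59 downstream. The lncRNA start is named as the nearest tabulated one, and a start shared with an untabulated isoform of the host could not be told apart.

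**Figure D2:**
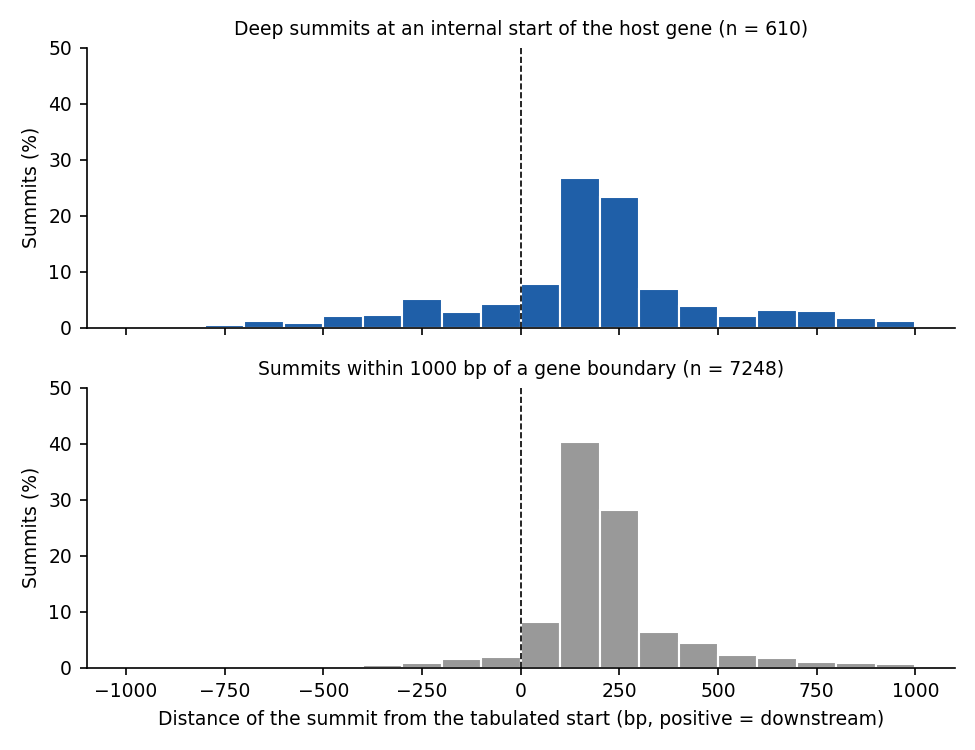
Offset of summits from the nearest start of the gene (bp, positive downstream) in bins of 100 bp, as % of 610 deep summits at internal starts (top) and of 7248 summits near gene boundaries (bottom). Both panels peak between 100 and 300 bp downstream, and the top panel has more summits upstream.

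Internal starts were occupied less often than starts at the gene boundary. After starts of a gene within 1000 bp of each other were merged, 531 of 1929 deep starts (27.5%, interval 25.6 to 29.6) had a summit within 1000 bp. At 5′ boundaries, 6643 of 13537 starts had one (49.1%, 48.2 to 49.9). Median scores where a summit was present were 30.4 (27.3 to 34.6) and 52.7 (51.3 to 53.9). A total of 669 genes had both a tabulated boundary start and a deep start. Of these genes, 243 (36.3%, 32.8 to 40.0) had a summit at the boundary start alone, 111 (16.6%, 14.0 to 19.6) at a deep start alone, 89 (13.3%, 10.9 to 16.1) at both, and 226 (33.8%, 30.3 to 37.4) at neither. In the 89 genes with both, the boundary summit had a median score of 50.6 and the deep one 29.2, and the deep one was the higher in 37.

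The 20 deep summits of highest score ran from 129 to 248, and 16 of them lay at a start of their host. The highest was in Wdr4, which encodes the partner of Mettl1 in methylation of tRNA, with a score of 248 at 314 bp downstream of the start shown above. Set, a histone chaperone and inhibitor of protein phosphatase 2A, followed with 229 at 877 bp downstream. Several hosts in this group encode chromatin regulators. Phc2, a Polycomb protein, scored 178 at 211 bp downstream of its start, Gatad2a, a subunit of the NuRD deacetylase complex, scored 176 at 267 bp, and Kmt5a, which methylates histone H4, scored 146 at 197 bp. Dnmt1, the maintenance DNA methyltransferase, which uses different first exons in oocytes and in somatic cells, scored 149 at -90 bp. Its summit lay 7175 bp inside the gene, and no summit was within 1000 bp of either end of Dnmt1. Adh5, the formaldehyde-clearing dehydrogenase, scored 176, and Cops3, of the COP9 signalosome, scored 148. Clta, a clathrin light chain, scored 144, and Mthfd2, a mitochondrial folate enzyme, scored 140. Tef, a transcription factor with a circadian rhythm in many tissues, scored 147 and had no summit at an end.

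Among members with no tabulated start, Phf21b, which encodes a PHD finger protein, scored highest at 153, and its summit lay 37.5% of the way along the gene. Slf2, of the pathway that brings Smc5/6 to damaged DNA, scored 151, and the kinase gene Sbk1 scored 127. Further members of this kind were in Dynll2 (115), a dynein light chain, Camta1 (114), a calmodulin-binding transcription factor, Cpeb2 (113), which binds polyadenylation elements of mRNA, and Chd9 (110), a chromatin remodeller. Slf2, Sbk1, Dynll2 and Cpeb2 have no entry in the start table, so a start near these summits was not examined. Phf21b, Camta1 and Chd9 do have one, and no tabulated start was within 1000 bp of these summits.

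Nested lncRNA genes accounted for most contacts of deep summits with other gene types. Within 1000 bp of either boundary of a gene of another type lay 162 members (13.1%, interval 11.3 to 15.04), against 16.2% (15.6 to 16.8) of the other summits. The genes were lncRNAs for 147 members, microRNAs for 7, snRNAs for 3, pseudogenes for 3, tRNAs for 2, an antisense RNA for 2 and another RNA for 1, and a member could touch more than 1 kind. The highest score at a lncRNA start was 145, in Gpam, an acyltransferase of triglyceride synthesis, 166 bp upstream of the start of Gm31356. Next came Pdpk1, the kinase that activates Akt, with 121 at Gm33409, and Tnfrsf19, a receptor of the tumour necrosis factor family, with 114 at Gm41167. Rnf220, a ubiquitin ligase, scored 113 at Gm12843. Axin1, a scaffold of the β-catenin destruction complex, scored 102 at Gm46600. Srrm2, a splicing protein, scored 97.4 at Gm52285, Mia3, a protein of collagen export, scored 91.9 at Gm34102, and Map3k1, a kinase of the JNK pathway, scored 82.2 at Gm15327. For Gpam, Pdpk1, Tnfrsf19, Srrm2 and Map3k1, a tabulated start of the host was also within 1000 bp of the summit. The lncRNA start was only the nearer, so these summits cannot be credited to the lncRNA alone. For Rnf220, Axin1 and Mia3 no host start was in reach, and Axin1 has no entry in the start table.

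Among the 7 members at microRNA genes, the highest score, 72.5, was 656 bp from Mir1893 in Epc1, a gene of the NuA4 acetyltransferase complex, for which no sequence is given. The next, 53.0, was 882 bp from Mir148a, inside the predicted protein-coding gene Gm38821. The nearest contact was in Gse1, where a summit of score 14.4 lay 17 bp from Mir7687. One mature sequence of each is given from RefSeq, GRCm38.p6, with the seed, bases 2 to 8, in capitals, because these are the next strongest and the closest of the microRNA contacts. The 13 mature sequences at 6 of the 7 members all had different seeds.
mmu-miR-148a-3p, minus strand, chr6:51269829-51269850: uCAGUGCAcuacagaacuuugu
mmu-miR-7687-5p, plus strand, chr8:120538696-120538720: aGGCGGGGaaccugaggcgcaggcu
Other contacts scored 30.7 at Mir1904 in Pde4d, 10.5 at Mir7240 in Mast3 and 7.65 at Mir6976 in Srf, the serum response factor.

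Imprinted loci, in which 1 parental allele is silenced, often carry nested noncoding transcripts that start at a methylated control region. In Kcnq1, the potassium channel gene that hosts the silencing RNA Kcnq1ot1, a summit of score 14.3 lay 135 bp downstream of the Kcnq1ot1 start. In Gnas, the gene of the stimulatory G protein α subunit, a summit of score 29.3 lay 187 bp from a boundary of the antisense RNA Gnasas1. In Trappc9, a summit of score 5.49 lay 190 bp from a boundary of Peg13. In Igf2r, a summit of score 19.0 lay 1040 bp from a boundary of Airn, just outside the reach used here. Of 20 imprinted hosts longer than 10000 bp, 7 held a deep summit (35.0%, exact interval 15.4 to 59.2), against 6.47% of all protein-coding genes of that length. Median length was 83450 bp in this list and 33214 bp in all genes, and longer genes held deep summits more often, as described next. Igf2, the fetal growth factor, was not in the list counted here and held 5 deep summits with scores of 5.79 to 30.4, all 5 at internal starts.

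The host genes were long, and fewer of them than of other genes had a summit at an end. Their median length was 79785 bp, and the share of genes holding a deep summit went from 2.21% (1.84 to 2.64) between 10000 and 25000 bp to 18.3% (16.0 to 20.8) above 200000 bp. A summit within 1000 bp of either end was present in 395 of 901 hosts (43.8%, interval 40.6 to 47.1), against 56.6% of all 13918 genes longer than 10000 bp. The share was also lower in hosts within each of 5 length classes, although the intervals of the shortest class overlapped. Between 50000 and 100000 bp, for example, 46.4% of hosts (40.0 to 53.0) and 62.3% of other genes (60.3 to 64.3) had an end summit. In the longest class the values were 45.3% (38.2 to 52.6) and 56.2% (52.8 to 59.6). Of the 506 hosts with no end summit, 314 (62.1%, 57.8 to 66.2) had a deep summit at a start of their own. Of the 395 with an end summit, 183 had one (46.3%, 41.5 to 51.3). Both groups include hosts on chromosome 18 and hosts with no entry in the start table, for which such a start could not be found.

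Deep summits often shared a gene. A single member was found in 665 hosts, 2 in 159, 3 in 58, and 4 or more in 19. Altogether 583 members (47.0%, interval 44.2 to 49.8) shared their gene with another, and 312 (25.1%) lay within 1000 bp of another member, so neighbouring members may come from 1 broad region. Members that shared a gene had a median score of 16.2 (14.4 to 18.1), and single members one of 21.7 (19.0 to 24.5).

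Bcor, which encodes a corepressor of Bcl6 found in a Polycomb complex, held the most deep summits, 13. They spanned 58327 bp of the 123780 bp gene on chromosome X, had scores of 3.58 to 33.6, and none was at a tabulated start. They fell into a group of 4 between 25.1 and 33.5 kb from the 5′ boundary and a group of 9 between 68.7 and 83.5 kb, which held the 2 highest scores, 33.6 and 31.3. One summit of score 10.5 lay at the 5′ end. Gnas held 7 members over 36007 bp, with 4 at tabulated starts of the gene. The highest of these, 50.6, lay 634 bp downstream of the start at 45.7 kb. Gse1, which encodes a partner of the Lsd1 demethylase complex, held 6 members in 2 groups around internal starts, near 260 and 309 kb. Dnmt3a, a de novo DNA methyltransferase, held 5, with a score of 91.1 beside an internal start near its 5′ end and 11.9 beside one 79.6% of the way along. Nfia, a transcription factor of the nuclear factor I family, held 5 between 180 and 202 kb, the highest at 65.2, and none was at a tabulated start. Msi1 and Nav1 also held 5 each, and Ank2, Camta1, Cic and Dab2ip held 4 each.

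**Figure D3:**
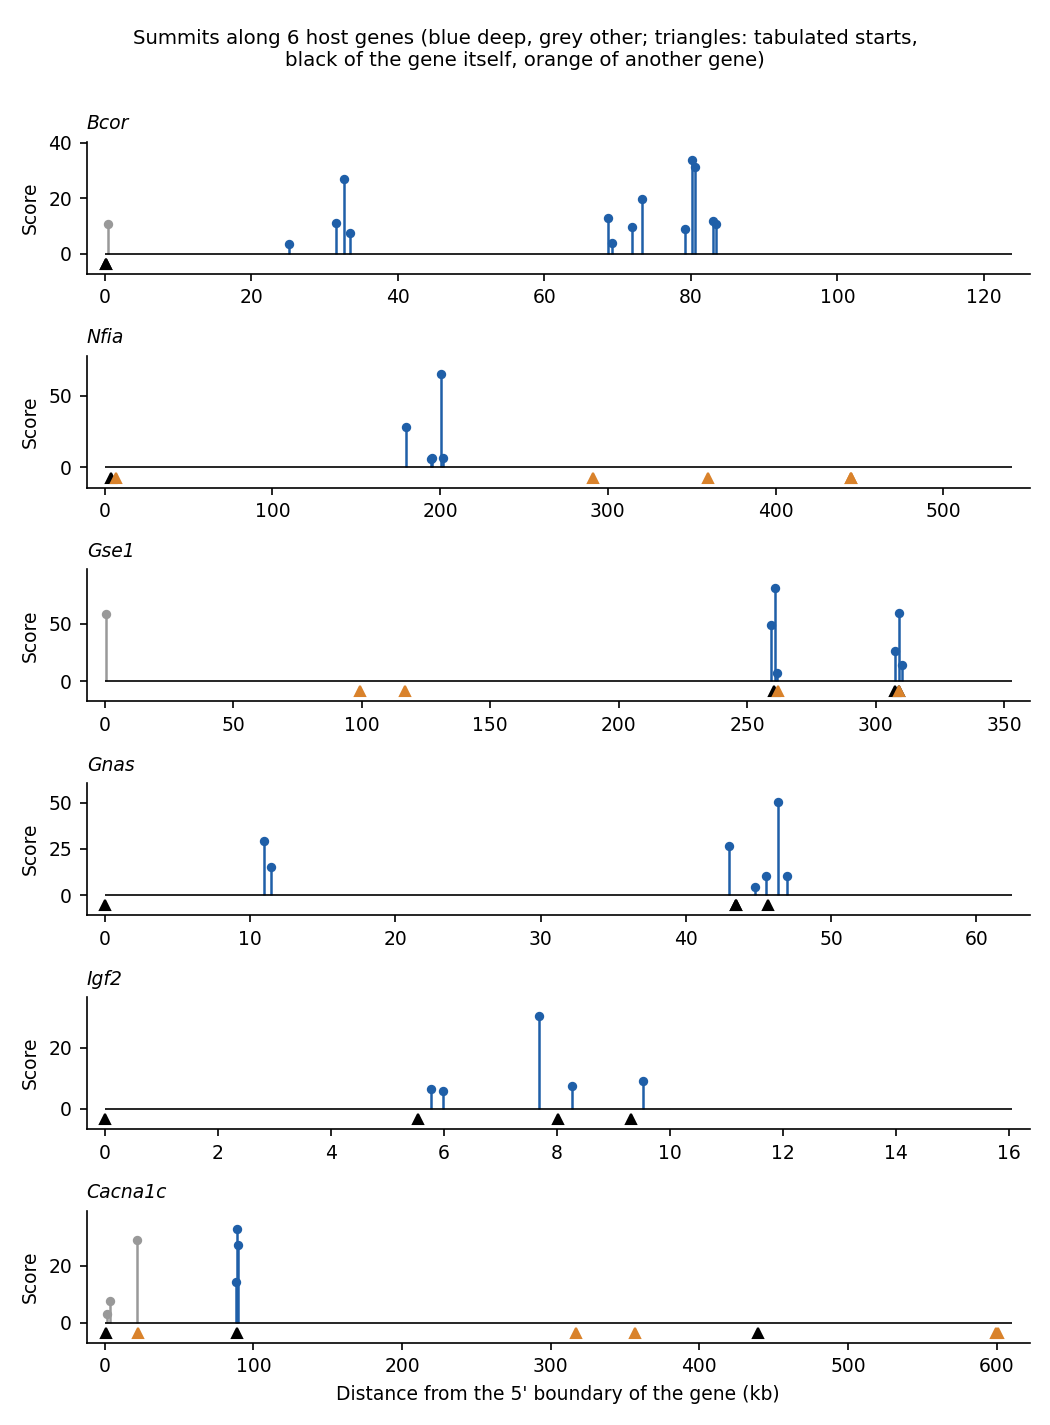
Score of every summit (vertical axis, −log10 p or q) along 6 host genes, by distance from the 5′ boundary in kb, with deep summits in blue and other summits in grey. Triangles mark tabulated starts of the gene itself (black) or of another gene (orange). The 5 deep summits in Igf2 and the 3 deep ones in Cacna1c stand at black triangles, and the 13 deep ones in Bcor do not.

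Along the gene, deep summits lay nearer to the 5′ side. Position could be measured for 1028 members with a known strand, and the rule keeps members away from both ends. The median position was 37.5% of the gene from its 5′ boundary (35.7 to 39.7), and 665 members (64.7%, 61.7 to 67.6) lay before the midpoint. Members at a host start had a median of 34.9% (32.2 to 37.2) and those with no tabulated start 45.6% (41.2 to 52.3). Of the latter, 197 of 367 lay before the midpoint (53.7%, 48.6 to 58.7). The interval of this median took in the midpoint, and that of this share took in an even split. Neither settled whether this group leaned to a side. Its lower quartile of position, 25.5%, was closer to the 5′ boundary than its upper quartile, 67.2%, was to the 3′ boundary. No interval was computed for these quartiles. The histogram of this group held 7.08% of members in the first bin and 14.2% at 20 to 30% of the gene. It held 11.2% at 70 to 80% and 3.27% in the last bin.

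**Figure D4:**
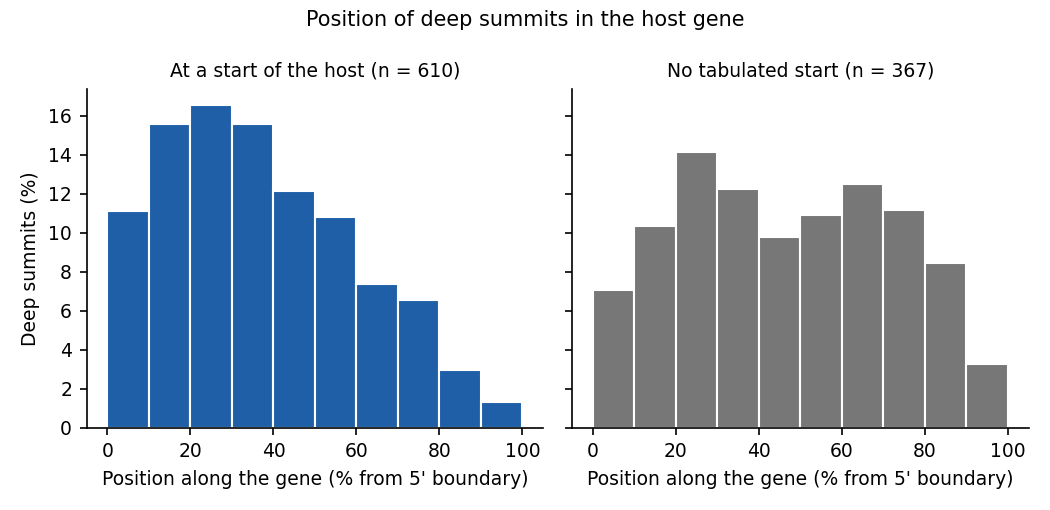
Position of deep summits along the host gene, in bins of 10% from the 5′ boundary, as % of 610 members at a start of the host (left) and 367 with no tabulated start (right). The left panel falls towards the 3′ side, with a median of 34.9%, and the right panel is flatter, with a median of 45.6%.

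Genes known for internal promoters held deep summits most often among the gene lists compared. In this list, 20 of 44 genes were hosts (45.5%, exact interval 30.4 to 61.2), with 42 members. Of these members, 18 were at a tabulated start and 21 had none within 1000 bp. Over all matched members, 55.9% were at a start, and this share also stands beside the counts at starts in the lists below. The list's median length was 308111 bp, and 18.3% of all genes above 200000 bp were hosts. Runx1, a regulator of blood formation with a distal and a proximal promoter, scored 19.7 at -261 bp from its internal start. Dmd, the dystrophin gene, scored 7.59 at 294 bp, and Tcf12, a basic helix-loop-helix factor, 8.15 at 848 bp. Macf1, a linker of actin and microtubules, scored 67.8 with no tabulated start. Since the list was drawn up from textbook knowledge of such promoters, these starts are no independent sign of their use in the heart.

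Chromatin and transcription regulators were hosts in 24 of 62 cases (38.7%, exact interval 26.6 to 51.9). Their median length was 116518 bp, and 13.2% of all genes between 100000 and 200000 bp were hosts. They held 57 members with a median score of 11.9, of which 16 were at a tabulated start. Besides Phc2, Dnmt1, Chd9 and Dnmt3a, the higher scores were 80.0 in Jmjd1c and 79.0 in Kdm2b, both of the family of histone demethylases, and 53.2 in Tet3, which oxidises methylcytosine. Class IIa histone deacetylases were among the hosts: Hdac7 scored 46.0 at 322 bp from an internal start, Hdac4 45.1 at 254 bp, and Hdac5 31.6 and Hdac9 11.7 with no start tabulated nearby.

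Of 22 Sin3 pathway genes longer than 10000 bp, 4 were hosts (18.2%, exact interval 5.19 to 40.3), each with 1 deep summit. Mxi1, a Max partner that recruits Sin3, scored 109 at -54 bp from the internal start whose window is shown above. Mnt, another Max partner, scored 43.3 with no tabulated start. Sin3a, the scaffold of the complex, scored 31.5 at 972 bp from a start, close to the limit of reach, and Arid4a, a Sin3-associated protein, scored 4.75. The interval of this small list took in the 6.47% of all genes.

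Heart transcription factors were hosts in 13 of 35 cases (37.1%, exact interval 21.5 to 55.1), at low scores and mostly away from tabulated starts. Median length was 71720 bp, and 8.85% of all genes between 50000 and 100000 bp were hosts. They held 22 members with a median score of 9.89, and 3 of these were at a tabulated start. Nr2f2, an orphan receptor of atrial and venous identity, held the highest, 55.0 and 38.7. Foxp1, a forkhead repressor, scored 43.4 at 130 bp downstream of an internal start, the window of which is shown above. Gata4, a zinc finger factor of early heart formation, scored 29.5, and Casz1 scored 22.3. Zeb2, a repressor of the epithelial state, held 3 members of 24.8, 12.4 and 9.29, the highest at 214 bp from a start. Tbx5, a T-box factor of the atria and left ventricle, held 3 members of 6.15, 5.47 and 4.99. Mef2c held 3, of 8.08, 7.31 and 4.02, and Tbx20 held 1 of 7.63.

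Heart muscle genes were hosts in 14 of 53 cases (26.4%, exact interval 15.3 to 40.3), with 24 members and a median score of 8.45. Their median length was 71307 bp, and 8.85% of all genes between 50000 and 100000 bp were hosts. The L-type calcium channels led this list. Cacna1c, the main channel of ventricular muscle, held 3 members of 32.8, 27.5 and 14.4 at 77, 644 and -433 bp from 1 internal start, 88.9 kb from the 5′ boundary. Cacna1d, the pacemaker channel, held 31.1 and 3.44 at another. Tpm1, tropomyosin, scored 29.3, and Rbm20, a splicing factor of titin, 28.1, neither at a tabulated start. Ttn, the titin gene, held 5.82 and 3.52, and Myl4, the atrial light chain, held 15.8, 12.2 and 5.20. Of 24 members here, 9 were at a tabulated start. Among endothelial and endocardial genes, 7 of 27 were hosts (25.9%, 11.1 to 46.3), against 5.22% of all genes between 25000 and 50000 bp, where their median length of 46246 bp lay. Scores in this list included Ece1 at 37.8, Nfatc1 at 31.1 and Mecom at 16.1.

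Genes of other cell types were hosts at shares whose exact intervals all took in 6.47%. There was 1 host of 24 epicardial and valve genes (Pdgfra, 5.38), and 2 hosts of 22 neural crest and neuronal genes. Leukocyte and erythroid genes had 2 of 23, skeletal muscle genes 1 of 20, and hepatocyte genes 0 of 15 (exact interval 0 to 21.8). Median lengths were 57447 bp for epicardial and valve genes and 49037.5 bp for neural crest and neuronal genes. They were 33386 bp for leukocyte and erythroid, 23518 bp for skeletal muscle and 18194 bp for hepatocyte genes. Of all genes, 2.21% were hosts between 10000 and 25000 bp, 5.22% between 25000 and 50000 bp and 8.85% between 50000 and 100000 bp. Extracellular matrix genes, of median length 121569 bp, had 0 of 36 (0 to 9.74), although 26 of the 36 had a summit at an end. At that length, 13.2% of all genes were hosts.

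**Figure D5:**
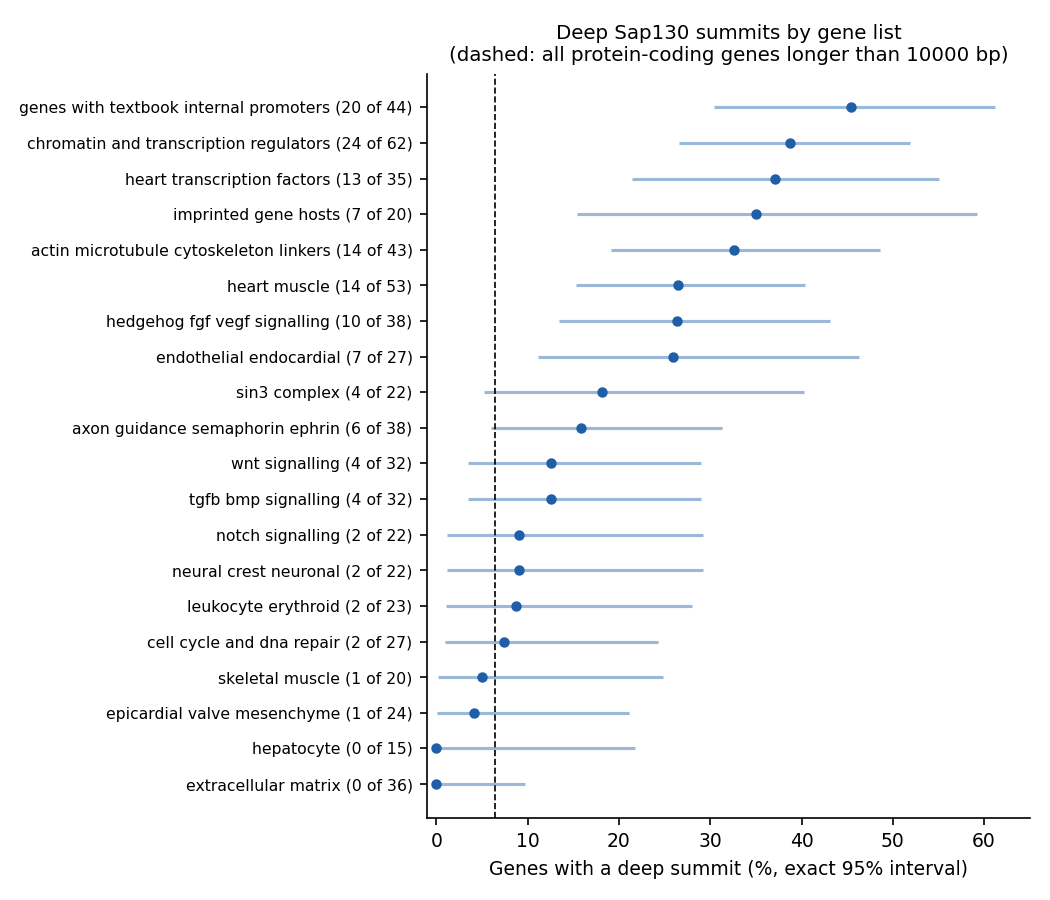
Share of genes longer than 10000 bp that held a deep summit (horizontal axis, %), for 20 gene lists, with exact 95% intervals as bars and the share of all 13918 such genes, 6.47%, as the dashed line. Genes with textbook internal promoters (45.5%), chromatin regulators (38.7%) and heart transcription factors (37.1%) are at the top, and extracellular matrix and hepatocyte genes at 0 are at the bottom.

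In sequence, the starts bound deep inside genes were rich in CpG, close to other bound starts and unlike unbound internal starts. CpG content is given as observed over expected CpG in the 300-base window, which is 1 when CpG occurs as often as C and G allow. The 586 windows nearest to a deep summit had a median of 0.744, and 74.4% of them (70.7 to 77.8) were above 0.6. Among the 3540 deep windows with no summit within 1000 bp, the median was 0.234 and 5.31% (4.62 to 6.10) were above 0.6. The 11539 other windows with a summit had a median of 0.813 and 82.8% above 0.6. With windows of protein-coding genes alone, the shares were 74.6% of 528 bound and 7.13% of 1515 unbound deep windows. The score of members also moved with CpG content: 504 members at windows above 0.6 had a median of 31.9 (29.2 to 35.9), and 165 at or below it one of 14.3 (11.2 to 17.5).

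The GC box GGGCGG, bound by Sp and Klf factors, was in 70.3% of the windows nearest to deep summits (66.5 to 73.9). It was in 12.46% of the unbound deep windows (11.4 to 13.6), 70.6% of the other bound windows and 35.7% of all 32851 windows. With windows of protein-coding genes alone, it was in 70.8% of 528 bound and 17.8% of 1515 unbound deep windows. The other motifs are given for windows of all gene types. The ETS motif CCGGAA was in 20.8% of bound deep windows, 5.73% of unbound deep windows, 30.0% of other bound windows and 14.9% of all. The E-box CACGTG, the site of Myc, Max and Mxi1 dimers, was in 6.997%, 4.49%, 11.0% and 7.15% of the same sets, and the NRF1 palindrome in 1.19%, 0.141%, 2.40% and 0.971%. The GATA motif AGATAA was less frequent in bound than in unbound windows, with 3.41%, 13.7%, 4.61% and 11.2%. The CCAAT box was in 32.3%, 34.3%, 37.0% and 37.4%. The E2F motif TTTCCCGC was in 2.56%, 0.282%, 2.25% and 1.07%, and the CRE TGACGTCA in 2.22%, 0.678%, 3.60% and 1.79%. The MEF2 motif was in 0 of 586, 3 of 3540, 12 of 11539 and 36 of 32851 windows. Both strands were searched, and matches of the same or of different motifs could overlap. GC content moved with these shares, with a median of 64.7% in bound and 48.7% in unbound deep windows, and its part in them was not tested.

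At the limit of the rule, the 3 members nearest to a boundary were in Zfp65 (5002 bp, score 16.1), Smad6 (5020 bp, 5.20) and Pura (5026 bp, 27.7). The 3 summits just outside were in Prr14 (4993 bp, 46.7), Per1 (4991 bp, 23.7) and Scarf2 (4990 bp, 5.86). The members farthest from any boundary were a pair in Tenm3, a teneurin adhesion gene, at 618002 and 617431 bp with scores of 27.1 and 5.38, and 1 in Opcml at 521878 bp with a score of 23.8. The lowest scores were 2.16 in Nav1, 2.75 in Rarb and 2.80 in Bahcc1.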

How the data were processed

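Chromatin immunoprecipitation sequencing gave 1 Sap130 library and 1 Input library. Per the submitters' processing notes, Bowtie 1.1.2, MACS2 2.1.0.20140616 and build GRCm38 (mm10) were used. Their settings, and the peak threshold, were not given in the sources used here. In the deposited file the authors list 14886 summits, each 1 base long, with a −log10 p or q score. The 5 mitochondrial entries were left out. Whether the score is p or q could not be settled, and it grows with depth as well as enrichment. Read counts and exon models were not used here.

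Members were found with a RefSeq GRCm38.p6 gene table (49603 genes on named chromosomes, 21779 protein-coding). Starts, strand and sequence came from 32851 RefSeq windows of 27025 genes, of which 17492 are protein-coding. Of the 863 host genes off chromosome 18, 732 have a window. A 5′ boundary counted as a start within 100 bp. Shares carry Wilson intervals, gene lists exact Clopper-Pearson intervals, and medians order-statistic intervals, all at 95%. No test between conditions was possible with 1 library, and the scripts were tested on simulated summits.

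The members and the 21 lists (738 genes, 56 in 2 or more lists, 1 symbol unmatched) were chosen with earlier results of these data known. The result of 1 list and 1 microRNA contact are not reported here. Named genes are a part of the top 20 scores, the hosts with most members, list members, noncoding contacts by score, and the limits of the rule. The list members are partly those of high score. Others, such as Dmd, Tcf12, Tbx5, Tbx20, Mef2c and Ttn, scored below the median of their list and were not picked by score. Every microRNA contact but the 1 not reported is named too. Highest members without a start, and Igf2 beside the imprinted list, were named after their values were seen. All comparisons with starts were added after seeing the files. Alternatives varied the 5000 bp distance, the score, merging, the gene set and the reaches. Scripts ran in Python 3.11.15 with pandas 2.3.3, scipy 1.17.1 and numpy 2.4.6, and plots in matplotlib 3.10.9.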

Additional observations from a re-analysis of the deposited data

How the results depend on the processing

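Of 66 alternatives, 30 stayed within the interval of the value given or, for counts, within 1.5 times, and 36 moved beyond it. No result has a test, so none gained or lost a call. With a distance of 2500 bp, 12.2% of summits were deep and the median position was 29.9%. With 10000 bp the values were 5.75% and 43.3%, with 48.3% of members in a host with an end summit and 52.7% at a start. With summits at or above the median score alone, 5.24% were deep, in 358 hosts, with a median score of 60.9. Of these, 73.2% were at a start, 16.7% near another gene type, 22.3% in a host with an end summit and 16.4% in a gene with another member, and the median position was 32.9%. At or above the upper quartile these were 4.43%, 164 hosts, 87.0, 75.6%, 18.8%, 10.3%, 1.21% and 28.4%. These settings drop weak summits at gene ends too. With boundaries of every gene type in the rule, 6.16% were deep, 41.0% shared a gene, and by construction 0% touched another gene type. Merging summits within 500 bp left 43.1% sharing a gene. Reaches of 500 and 2500 bp gave 9.02% and 20.1% near another gene type and 35.4% and 49.7% with an end summit. Added after seeing the data, reaches of 300, 500 and 2500 bp gave 39.5%, 48.1% and 62.5% at a start, and hosts in the start table alone gave 64.3%. Leaving out members at a start gave a median score of 12.49 and 405 hosts. No paired analysis was possible because there is 1 ChIP library and the results come from no test. Depth limits which weak summits were called, so a gene without a deep summit is one in which none was called here.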

Other observations

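Of all protein-coding genes longer than 10000 bp, 6.47% held a deep summit, as did 8.85% of those between 50000 and 100000 bp and 13.2% of those between 100000 and 200000 bp. The other gene lists are given against these shares. Actin and microtubule linkers, of median length 176975 bp, were hosts in 14 of 43 cases (32.6%, exact interval 19.1 to 48.5), led by Mical3 (101.3) and the focal adhesion gene Pxn (95.01). Hedgehog, FGF and VEGF signalling genes had 10 of 38 (26.3%, 13.4 to 43.1), with Ptch1, the hedgehog receptor, at 77.5, 225 bp downstream of an internal start. Axon guidance genes had 6 of 38 (15.8%, 6.02 to 31.3), with Sema4b at 70.6. Wnt and TGF-β or BMP genes had 4 of 32 each (exact interval 3.51 to 29.0%), and the highest scores were 102 in Axin1 and 9.82 in Tgfb2. Notch genes had 2 of 22 (9.09%, 1.12 to 29.2), with Rbpj, the DNA-binding factor of the pathway, at 53.5 and 53.1. Cell cycle and DNA repair genes had 2 of 27 (7.41%, 0.910 to 24.3), with Ccnd3, cyclin D3, at 105 and 224 bp downstream of an internal start 93.7% of the way along the gene.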
